A study of Mus musculus with 4 samples.

Results

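In forebrain of mouse embryos at embryonic day 11.5, 1170 narrow regions of histone H3 trimethylated at lysine 4 (H3K4me3) lay between stretches of histone H3 trimethylated at lysine 36 (H3K36me3) on both sides. They were found among 7992 H3K4me3 regions of chromosomes 1 to 19, of which 7716 were narrow, meaning 1 to 3 kb wide. A region was a run of 1 kb bins with at least 20 tags of the H3K4me3 ChIP and at least 4 times the scaled input. A member was a narrow region whose H3K36me3 ratio of ChIP to scaled input was at least 2 in each flank, a flank being the stretch from 1 to 11 kb beyond an edge. The members were therefore chosen by H3K4me3 inside the region and by H3K36me3 in the flanks, and those values are given as a description. A further 4147 narrow regions had 1 such flank and 2399 had neither.

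H3K4me3 is written at promoters by methyltransferases of the SET1 and MLL family and marks active and poised starts of transcription. H3K36me3 is written by SETD2, which travels with elongating RNA polymerase II, so it covers the bodies of transcribed genes and is typically low at their promoters. At a simple gene H3K4me3 sits at the start and H3K36me3 on 1 side of it. H3K36me3 on both sides of a short H3K4me3 region is known from starts that lie close to or inside another transcribed unit, such as neighbouring genes read in opposite directions and internal promoters.

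The study profiled both marks by chromatin immunoprecipitation and sequencing (ChIP-seq) in forebrain of the outbred strain CD1, without further treatment or genetic change in the labels. Each of the 4 groups held 1 library: the H3K4me3 ChIP, its input, the H3K36me3 ChIP and its input, where an input is chromatin that was not immunoprecipitated. Pools of 36 forebrain pieces per ChIP library were treated with trypsin and versene, passed through a strainer, fixed in 1% formaldehyde and sonicated in 12 pulses of 30 seconds, and 10 microlitres of antibody were used for H3K4me3 and 15 for H3K36me3. The H3K4me3 ChIP and its 0.5% input went through 8 cycles of whole-genome amplification, while the H3K36me3 ChIP and its input did not, so mark and amplification cannot be told apart. A pool of whole forebrain is a mixture of cell types, and tags of the 2 marks at a region need not come from the same cells. No spread between replicates could be measured, no test between conditions was possible, and every interval below is an exact 95% interval. Intervals of ratios and levels cover counting error of tags in these libraries only. Intervals of shares of regions and of members per Mb treat regions as independent draws, although neighbouring regions can share tags.

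The libraries held 7606197 (H3K4me3 ChIP), 2513019 (amplified input), 10466543 (H3K36me3 ChIP) and 23110768 (unamplified input) used tags. On chromosomes 1 to 19 this came to 3.09, 1.03, 4.35 and 9.51 tags per covered kb. Levels below are given as multiples of these autosomal means, and ratios are ChIP over input scaled by library totals, with 1 tag added to each term where a single region is classed. Of covered 1 kb bins, those with an unamplified input tag, 0.607% passed the H3K4me3 rule. All positions are in the build mm8. Genes were not placed on them, the forebrain label was not checked against marker genes, and no sequence is shown.

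The share of regions with both flanks at the minimum was larger among wider regions. It was 11.5% (10.5 to 12.5) of 4111 regions of 1 kb, 18.2% (16.8 to 19.7) of 2692 regions of 2 kb and 22.9% (20.2 to 25.8) of 913 regions of 3 kb. Members thus numbered 471, 490 and 209 at these widths. The background over all narrow regions was 15.2%, and over covered 1 kb bins that lay in no H3K4me3 region it was 6.48%. Exactly 1 flank was at the minimum in 8.5% of those bins, against 4147 of the 7716 narrow regions. The rule itself used these contrasts, so the shares only describe how the members were picked.

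H3K4me3 of members was a little denser than that of the other narrow regions. Members held a median of 45 H3K4me3 ChIP tags per kb (interquartile range 33 to 61), against 42 in regions with 1 flank and 34 in those with neither. Among members this density was larger in wider regions, with medians of 38, 47.25 and 50 at 1, 2 and 3 kb. The classes differed in their widths and were not compared within a width, so the part of width was not tested. Summed over members, the H3K4me3 ChIP stood at 16.3 times its mean (16.2 to 16.4), against 15.3 and 12.7 times in the other classes. The median ratio to the amplified input was 18.1 in members, 19.3 with 1 flank and 16.6 with neither, so the order of the classes by tags was not kept by the ratio. The amplified input was thin here, with 1 tag at the median member and no tag in 334 members (28.5%, 25.97 to 31.2).

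The member with the most H3K4me3 tags lay on chromosome 11 (86924001 to 86927000). It held 363 tags of the H3K4me3 ChIP, 1 of the amplified input, 22 of the H3K36me3 ChIP and 59 of the unamplified input. In its flanks H3K36me3 stood at 9.01 (7.12 to 11.5) and 12.5 (9.42 to 16.8) times the scaled input, the flank of lower coordinate first, as in all pairs below. It thus carried H3K36me3 strongly and about equally on both sides, and its stretch of H3K36me3 reached over 215 kb.

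The next members by H3K4me3 tags differed in their flanks. One on chromosome 2 (172061001 to 172064000) held 335 H3K4me3 tags against 4 amplified input tags, with flank ratios of 9.48 (8.23 to 10.96) and 9.29 (8.07 to 10.7). One on chromosome 8 (113732001 to 113735000) held 285 against 0, with flanks of 11.4 (9.23 to 14.2) and 8.68 (6.95 to 10.9). These pairs overlapped in their intervals. A member on chromosome 5 (100668001 to 100671000) held 294 against 1, with flanks of 10.4 (8.59 to 12.7) and 3.03 (2.42 to 3.804). Another on chromosome 11 (115328001 to 115331000) held 285 against 6, with flanks of 6.12 (5.14 to 7.30) and 2.90 (2.28 to 3.69). At these last members H3K36me3 was clearly higher on the side of lower coordinate.

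Over all members the lower of the flank ratios had a median of 3.38 (interquartile range 2.58 to 4.57) and the higher a median of 6.10 (4.67 to 7.82). The flanks were within 1.5 times of each other in 553 members (47.3%, 44.4 to 50.2) and at least 3 times apart in 125 (10.7%, 8.97 to 12.6). The higher flank had the higher coordinates in 573 members (49.0%, 46.1 to 51.9), so neither direction along the chromosome was preferred. The ratios of the flanks at lower and higher coordinate had a Spearman correlation of -0.23 over all 7716 narrow regions and of -0.01 over the 1170 members, where both values were limited by the rule (a description over regions of the same libraries). In 918 members (78.5%, 76.0 to 80.8) both flank intervals lay wholly above 2, and in all but 1 both lay above 1. The rule picked members on these same ratios, so these counts do not measure whether depth sufficed. The flanks of members held more unamplified input than those of other classes, with a median of 150 tags per flank against 122 with 1 flank and 111 with neither, and the part of depth in the classes was not tested.

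**Figure D1:**
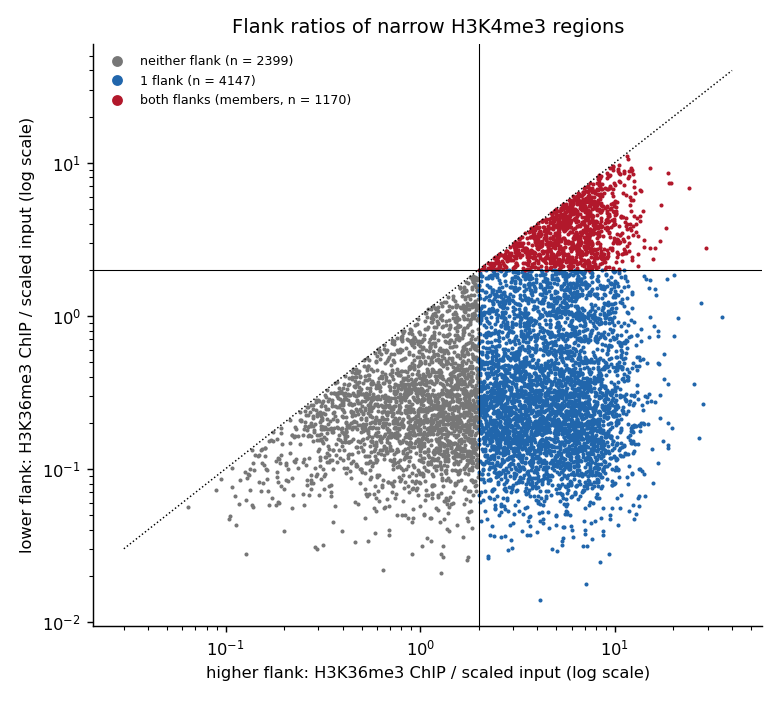
Each point is a narrow H3K4me3 region; the x axis gives the higher and the y axis the lower of its H3K36me3 flank ratios (ChIP over scaled input, both log scales), lines mark the minimum of 2, and the dotted line marks equal flanks. The 1170 members fill the corner above both lines, the 4147 regions with 1 flank lie mostly far below it (median lower ratio 0.279), and no gap in the points separates members from the rest at the minimum.

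Outside chromosome 18, where the highest value of all lay, the 8 members with the highest lower flank came from 7 chromosomes. At the leading one of these, on chromosome 9 (109945001 to 109946000), the flanks held 859 and 519 H3K36me3 tags against 179 and 96 input tags, ratios of 10.6 (9.01 to 12.5) and 11.9 (9.58 to 15.0). Its H3K4me3 was modest, 33 tags against 0. On chromosome 11 a member (106071001 to 106073000) with 174 H3K4me3 tags had flanks of 10.7 (8.97 to 12.8) and 9.65 (8.39 to 11.1), and another (98625001 to 98627000) with 107 had 9.94 (8.29 to 12.0) and 9.73 (7.80 to 12.2). At these 3 members the sides did not differ beyond their intervals.

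A member on chromosome 3 (103187001 to 103189000) had flanks of 9.64 (7.16 to 13.2) and 9.99 (7.91 to 12.7), and one on chromosome 15 (12768001 to 12770000) had 10.5 (8.71 to 12.8) and 9.17 (7.57 to 11.2). On chromosome 17 (35450001 to 35451000) the flanks stood at 12.2 (10.5 to 14.2) and 9.26 (7.83 to 11). The chromosome 19 member of this set (8823001 to 8826000) was the least even, at 9.44 (7.38 to 12.2) and 15.4 (13.1 to 18.1). The member of chromosome 2 at 172061001, described above, completed the 8. Strong H3K36me3 on both sides thus went with H3K4me3 counts from 33 to 335 tags.

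The least even members showed the opposite arrangement. On chromosome 7 (29877001 to 29880000) the flank of lower coordinate held 2169 H3K36me3 tags against 160 of input, a ratio of 29.9 (25.5 to 35.4), and the other held 207 against 163, a ratio of 2.80 (2.27 to 3.46). Members on chromosome 13 (100543001 to 100545000; 15.9, 13.7 to 18.5, and 2.38, 1.92 to 2.95) and chromosome 4 (12014001 to 12016000; 2.13, 1.57 to 2.90, and 14.1, 9.29 to 22.2) followed. That the lower flank exceeded its scaled input in all 3 is set by the rule. The most even flanks were those of members on chromosome 13 (105348001 to 105350000; 5.21 and 5.28) and chromosome 10 (122387001 to 122389000; 3.77 in each).

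Between these in evenness, a member on chromosome 8 (75168001 to 75169000) entered through the added tag: its flank of lower coordinate held 1 ChIP tag and 0 input tags, which gives exactly 2. It was the member closest to the minimum, and 3 members in all had a flank with under 20 input tags. The next just inside lay on chromosome 7 (140707001 to 140710000, lower ratio 2.0006) and chromosome 8 (13287001 to 13289000, 2.001). Just outside were regions of chromosome 9 (35016001 to 35018000, 1.998), chromosome 19 (45059001 to 45061000, 1.997) and chromosome 15 (31545001 to 31548000, 1.996). Values on either side of the minimum differed by far less than their counting error.

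H3K36me3 fell to a trough over the H3K4me3 itself. In the 500 bp on either side of the region centre the H3K36me3 ChIP stood at 0.938 and 1.02 times its mean. In the flanks, summed over members, it stood at 6.30 times on the lower and 10.9 times on the higher side. Recovery was fast: more than 50% of the highest level on a side was reached between 1 and 1.5 kb beyond the edge, at 4.20 times on the lower and 6.68 times on the higher side. The shapes then parted. The lower side rose slowly from 6.04 times at 3 to 3.5 kb to 7.31 times at 10.5 to 11 kb, while the higher side reached 12.4 times at 7.5 to 8 kb and stood at 10.5 times at 10.5 to 11 kb. Regions are turned here by the flank ratios of the rule over 1 to 11 kb, so that the sides differ in height is by construction. The turning can also shape the sides within that window, and its part was not tested. At 29.75 kb from the centre the sides were closer, at 4.50 times on the lower and 5.19 times on the higher side.

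**Figure D2:**
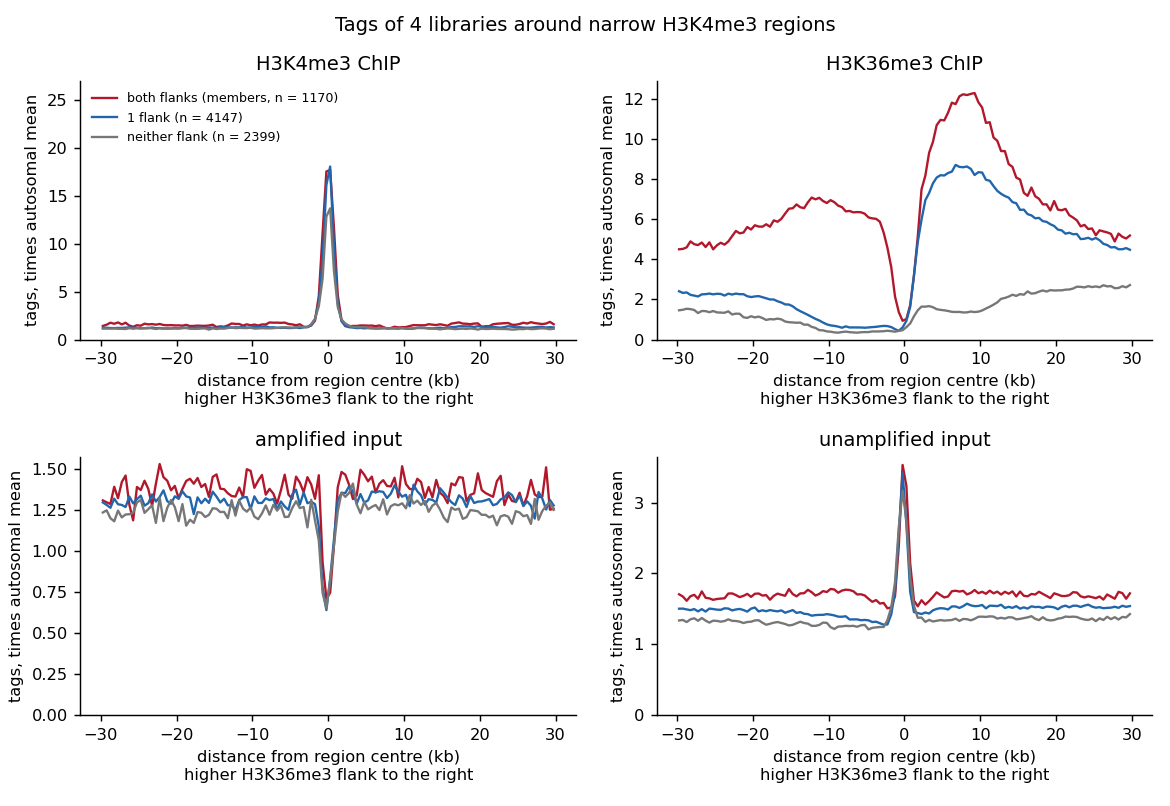
Tags of each library in 500 bp steps up to 30 kb from the region centre, as multiples of the autosomal mean, with the higher H3K36me3 flank to the right; lines are members (n = 1170) and narrow regions with 1 flank (n = 4147) or neither (n = 2399). H3K36me3 of members dips to 0.938 times the mean at the centre between shoulders of about 7 and 12 times, H3K4me3 and the unamplified input peak at the centre in all classes, and the amplified input dips there.

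Inside the members H3K36me3 was low against its own input. All members together held 10656 H3K36me3 tags and 55125 unamplified input tags inside, a pooled ratio of 0.427 (0.418 to 0.436), against 0.345 (0.341 to 0.350) with 1 flank and 0.234 (0.229 to 0.239) with neither. The median over members was 0.212 (interquartile range 0.119 to 0.372). No H3K36me3 tag was found in 152 members (13.0%), fewer than the 19.6% with 1 flank and 30.4% with neither. The classes also differed in width and depth. Regions of 1 kb numbered 471 of the 1170 members, 2085 of 4147 with 1 flank and 1555 of 2399 with neither. The median region held 44, 38 and 33 unamplified input tags inside, and the part of width and depth in these shares was not tested. Inside was lower than the lower flank in 98.4% of members, 62.0% of regions with 1 flank and 64.9% with neither, and the minimum set on both flanks nearly fixes the share of members. The pooled value leans on a few regions: without the 36 members with a ratio of at least 2 it was 0.260 (0.253 to 0.267).

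Whether this lay below input depended on the input. The unamplified input itself stood at 2.79 times its mean inside members (2.77 to 2.81), and the amplified one at 0.818 times (0.780 to 0.857). Against the amplified input H3K36me3 inside members stood at 1.44 (1.37 to 1.52), and the H3K36me3 ChIP alone at 1.18 times its mean (1.16 to 1.201). The rule favoured bins with few amplified input tags. Ratios to the amplified input inside the regions are thus not free of that choice, and its part was not tested. When membership was also drawn against the amplified input the ratio was 1.65, and with the input scaled on background bins it was 1.604. The depth of the trough relative to the flanks was in part set by the rule, which picked flanks with high ratios to the unamplified input.

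Members with the lowest ratios inside held no H3K36me3 tag over deep input. On chromosome 3 (95903001 to 95906000) 0 H3K36me3 tags stood against 92 of unamplified input, which allows a ratio of up to 0.0903, between flanks of 2.60 (1.83 to 3.71) and 7.20 (5.43 to 9.66). Members on chromosome 13 (59778001 to 59780000), chromosome 11 (59265001 to 59267000) and chromosome 12 (102376001 to 102378000) held 0 against 72, 69 and 69 input tags. Their flanks stood between 2.99 and 6.52 times the scaled input, as averages over 1 to 11 kb beyond the edges.

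At a small group of members H3K36me3 was high inside as well. The inside ratio was at least 2 in 36 members (3.08%, 2.16 to 4.23), against a background of 2.16% of narrow regions and 10% of covered bins in no H3K4me3 region. It was 2.53% with 1 flank (2.08 to 3.06) and 1.08% with neither (0.709 to 1.58). The share of members was thus near that of regions with 1 flank. The highest lay on chromosome 2 (152378001 to 152379000), where 27 H3K4me3 tags came with 212 H3K36me3 tags against 21 of input, a ratio of 22.3 (14.2 to 36.8), above both flanks (8.65, 7.51 to 9.99, and 3.90, 3.34 to 4.55).

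The others of this set lay on chromosome 17 (12585001 to 12586000, 9.13, 6.34 to 13.5, with 23 H3K4me3 tags) and chromosome 9 (106743001 to 106744000, 7.73, 5.45 to 11.2, with 30). Those regions were 1 kb wide and near the minimum of 20 tags. The remaining one, on chromosome 17 (35444001 to 35447000), held 273 H3K4me3 tags and 382 H3K36me3 tags against 84 of input, a ratio of 10.0 (7.91 to 12.9). It lay 3 kb from the chromosome 17 member with strong flanks named above, at which the inside ratio was 0.368 (0.040 to 1.65). Neighbouring members thus differed in the H3K36me3 that they carried inside. They were not separate observations: the 382 H3K36me3 tags were also among the 1175 in the other member's flank of lower coordinate. Another H3K4me3 region lay within 11 kb of 19 of the 36 (52.8%, 35.5 to 69.6), against 299 of the other 1134 members (26.4%, 23.8 to 29.0), a split made on the measured ratio and so a description.

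**Figure D3:**
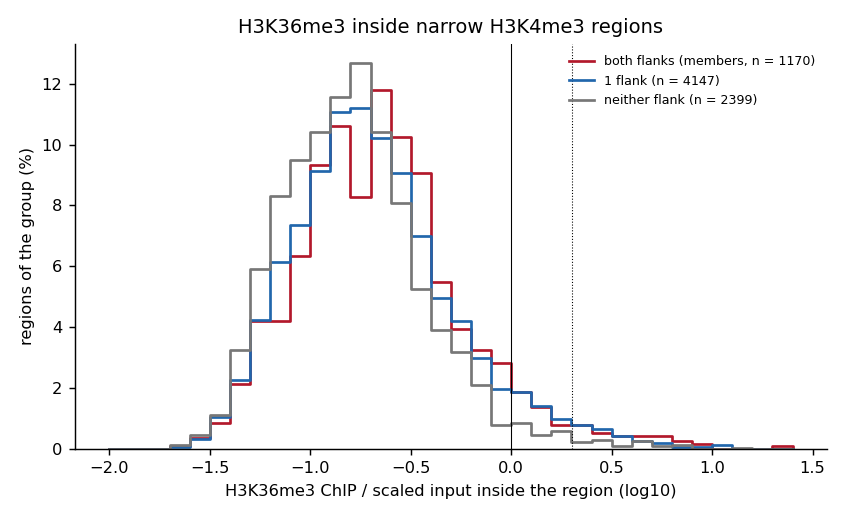
Share of the regions of each class (y axis, percent) by the H3K36me3 ratio inside the region (x axis, log10, steps of 0.1); the solid line marks a ratio of 1 and the dotted line a ratio of 2. The classes overlap widely, with medians of 0.212 in members, 0.188 with 1 flank and 0.157 with neither, and a thin tail above 2 holds 36 members.

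H3K36me3 continued past the flanks that the rule used. At 11 to 21 kb the ratio was at least 2 on the side of the lower flank in 760 members (65.0%, 62.1 to 67.7) and on the other side in 871 (74.4%, 71.8 to 76.9). The background was 40.1% of the sides of narrow regions and 10.7% of the sides of covered bins in no H3K4me3 region. Both sides passed at 49.1% of members (46.2 to 52.0), 12.5% of regions with 1 flank and 3.79% with neither. At 41 to 51 kb the shares of members were 37.6% and 39.1%. On the higher side members and regions with 1 flank had similar shares, 74.4% and 71.8% at 11 to 21 kb and 39.1% and 40.4% at 41 to 51 kb. These windows were not in the rule, but they adjoin the flanks that were and come from the same libraries.

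**Figure D4:**
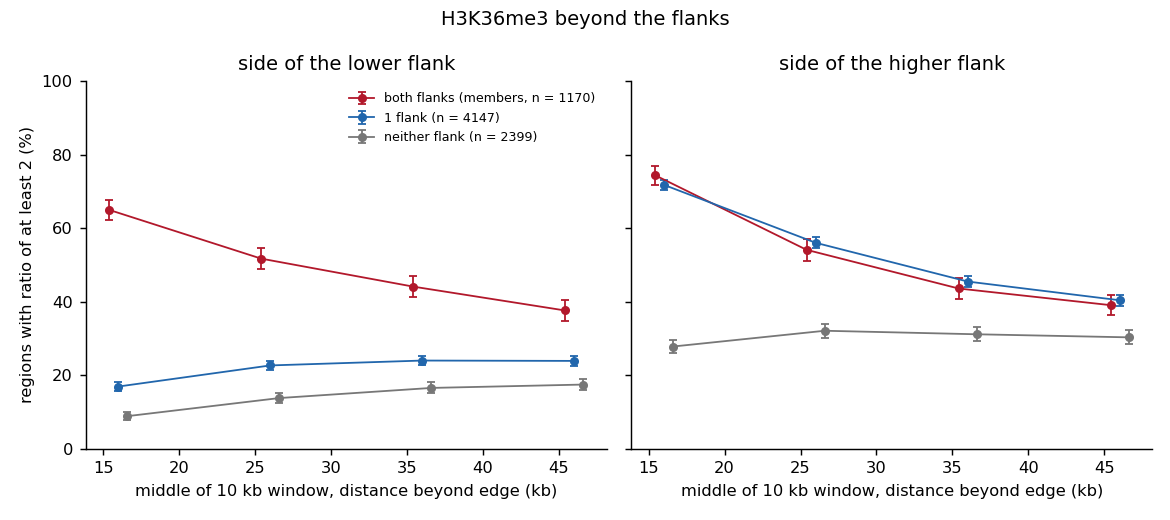
Share of regions with an H3K36me3 ratio of at least 2 in 10 kb windows beyond the flanks, on the side of the lower flank (left) and of the higher flank (right); bars are exact 95% binomial intervals. On the left the members (65.0% in the first window) stand above regions with 1 flank (16.9%), and on the right these classes nearly coincide.

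The stretch of H3K36me3 around a member, joined in 5 kb windows with a ratio of at least 1.5, had a median length of 64 kb (interquartile range 43 to 90). It was at least 100 kb in 245 members (20.9%, 18.6 to 23.4). The members were not centred in it as a rule. The shorter reach made up a median of 33.3% of both reaches together (interquartile range 22.2 to 40), where a centred member has 50%. The shorter reach was 10 kb or less in 409 members (35.0%, 32.2 to 37.8), close to what the rule demands, and 20 kb or more in 544 (46.5%, 43.6 to 49.4). The median reach, counted in steps of 5 kb, was 25 kb on the side of the lower and of the higher flank alike. The length of the stretch had a Spearman correlation with the higher flank ratio of 0.07 over members. Over all 7716 narrow regions it was 0.56. The stretch begins with the same tags as the flanks, so these values are in part built in, and the rule limited the flanks of members. The longest stretches, 293, 258 and 258 kb, belonged to members on chromosome 3 (88861001 to 88862000, 88857001 to 88858000 and 88917001 to 88918000). They held 24, 24 and 23 H3K4me3 tags against 0 amplified input tags, and the first also reached the search limit of 200 kb.

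Members lay closer to other H3K4me3 regions than narrow regions of the other classes did. The gap to the nearest other region had a median of 22 kb (interquartile range 11 to 43), against 46 kb with 1 flank and 87 kb with neither. It was 11 kb or less in 27.2% of members (24.6 to 29.8), 14.4% with 1 flank (13.4 to 15.6) and 10.1% with neither (8.95 to 11.4), against a background of 15% of narrow regions and 7.95% of covered bins. The position of neighbours was not in the rule. Close regions count as neighbours of each other, and 451 members (38.5%) had another member in their stretch. Regions are thus not independent, and the intervals do not test a difference between classes. Still, 510 members (43.6%, 40.7 to 46.5) had no other H3K4me3 region in their stretch, 374 had 1, 155 had 2 and 131 had at least 3.

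Neighbours moved with the H3K36me3 inside. In the 888 members with no other H3K4me3 region beginning in a flank, the pooled inside ratio was 0.348 (0.339 to 0.357) and the median flanks were 3.50 and 6.24. In the other 282 it was 0.704 (0.679 to 0.730), with flanks of 3.12 and 5.62. These members were narrower (median width 1 kb against 2 kb) and held a median of 39.5 H3K4me3 tags per kb against 46. The medians of the inside ratio lay closer together, 0.199 and 0.260. The part of neighbours in the trough was not tested.

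Stretches of several members ran together. Joined where they overlapped, they made 886 domains with 62.2 Mb in all. Of these 684 held 1 member, 146 held 2 and 56 held 3 or more, and members of 1 domain share flanking tags and are not independent. A domain on chromosome 19 (8773001 to 8918000) held 6 members among 10 H3K4me3 regions over 145 kb, with 4797 H3K36me3 tags against 2220 of input. Another on chromosome 9 (44023001 to 44114000) held 6 among 7 over 91 kb. The chromosome 3 domain with the longest stretches (88770001 to 89063000) held 5 among 7 over 293 kb, and one on chromosome 11 (77993001 to 78169000) held 5 among 7 over 176 kb.

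Summed over regions turned by their flank ratios, the inputs differed in shape between members and the other classes. The unamplified input within 1 kb of the median H3K4me3 tag lies outside the flank windows and took no part in the rule. Unamplified input peaked at members just off the median H3K4me3 tag, with its highest 50 bp step 225 bp toward the lower H3K36me3 flank at 3.67 times the mean. At 250 to 500 bp it stood at 3.34 times (3.27 to 3.41) on the lower and 2.83 times (2.77 to 2.89) on the higher side. With 1 flank the same stretches stood at 3.64 (3.60 to 3.68) and 2.09 (2.07 to 2.12). With neither they stood at 3.29 (3.24 to 3.34) and 2.33 (2.29 to 2.37), so the summed peak of members was the most symmetric. The higher flank ratio was a median of 1.55 times the lower in members, 16.0 times with 1 flank and 3.60 times with neither. The sides of members were thus less firmly told apart by the turning, and its part in the symmetry was not tested. Amplified input dipped at 250 to 500 bp, to 0.749 times (0.654 to 0.853) and 0.752 times (0.657 to 0.857) in members. It stood at 0.471 (0.431 to 0.515) and 0.862 (0.807 to 0.920) with 1 flank, and at 0.497 (0.443 to 0.556) and 0.823 (0.753 to 0.898) with neither. The values of members rest on 225 and 226 tags, and the amplified input helped to choose the regions. Sets of members leaned opposite ways within this sum: the levels were 0.758 (0.574 to 0.982) and 0.492 (0.346 to 0.678) in the 293 members with the most even flanks, and 0.678 (0.505 to 0.891) and 0.984 (0.772 to 1.23) in the 293 with the least even. Within each set these intervals overlap.

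The evenness of the sum did not show how even single members were. In single members with at least 20 unamplified input tags within 1 kb of the median H3K4me3 tag, the fuller side held a median of 67.9% of these tags (interquartile range 58.9 to 77.5), against 69.0% with 1 flank and 67.8% with neither. The fuller side holds the larger part by definition, also where the sides differ only by counting error, and no baseline was drawn for this. The classes were alike in this share, and differed in how often the fuller side faced the lower flank. It did so in 669 of 1142 members (58.6%, 55.7 to 61.5), in 74.2% of regions with 1 flank (72.8 to 75.5) and in 67.4% with neither (65.4 to 69.3). In the 293 members with the most even flanks the share was 52.1% (46.1 to 58.1) and in the 293 with the least even 62.8% (56.9 to 68.3), intervals that overlap.

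**Figure D5:**
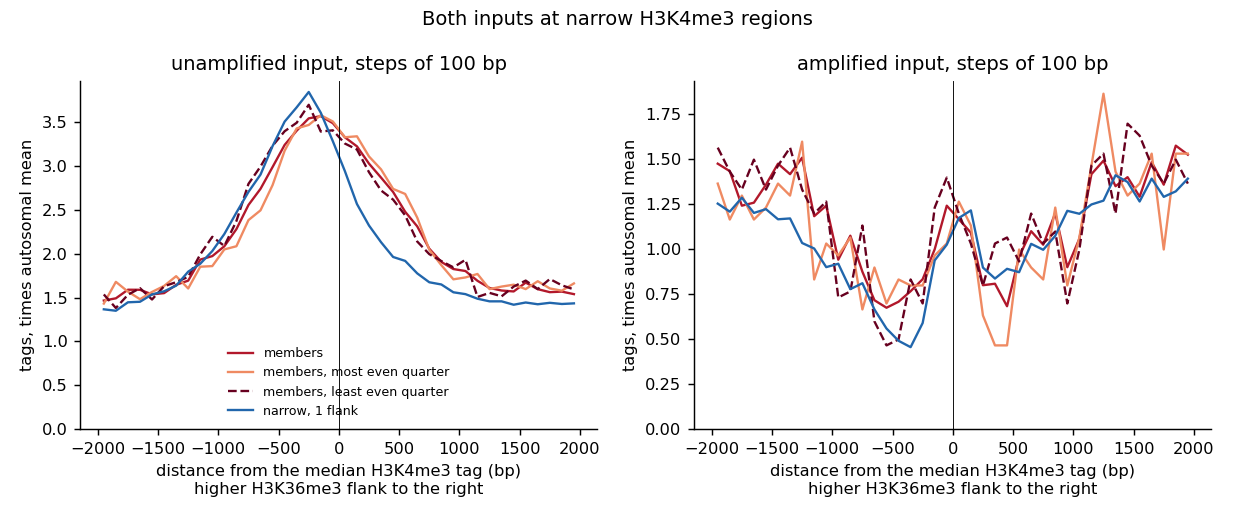
Unamplified (left) and amplified (right) input within 2 kb of the median H3K4me3 tag, as multiples of the autosomal mean in steps of 100 bp, with the higher H3K36me3 flank to the right. The peak of members in the unamplified input is higher on the right than that of regions with 1 flank, and the amplified input summed over all members dips on both sides; the lines of the 293 most and the 293 least even members are noisy in the shallow amplified library.

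Members were unevenly spread over chromosomes. Chromosomes 11 and 7 held the most per covered Mb, 0.936 (0.770 to 1.13) and 0.918 (0.764 to 1.09), against 0.494 (0.466 to 0.523) over all autosomes, and chromosome 1 held the fewest, 0.267 (0.198 to 0.350). As a share of narrow regions, which allows for their number, members made up 21.8% on chromosome 17 (17.7 to 26.5) and 21.5% on chromosome 7 (18.2 to 25.1), and 10.3% on chromosome 6 (7.46 to 13.6), against 15.2% in all. Unamplified input depth differed between chromosomes as well. It stood at 1.31 times the autosomal mean on chromosome 11 (a share of 17.2%), 1.12 times on chromosome 7, 1.11 times on chromosome 17, 0.872 times on chromosome 1 (11.4%) and 0.918 times on chromosome 6. Chromosomes 5, 7, 8, 11, 17 and 19 had input above the autosomal mean and shares above 15.2%. Chromosomes 1, 3, 6, 10, 12, 13, 16 and 18 had both below, with the least input on chromosome 3 (0.786 times, 14.3%). Chromosomes 2, 4, 9 and 15 had input above and shares below, such as 1.11 times and 12.3% on chromosome 9. Chromosome 14 had the reverse, 0.847 times and 17.2%. The part of depth in these shares was not tested.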

How the data were processed

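The authors deposited lists with 1 placed tag per line (chromosome, position, sign). The submitters' processing notes name the build mm8; aligner, settings, read length and the counting origin of positions were not given in the sources used here. Going by the list names, each tag had 1 placement. Repeats were absent from 3 lists, and those of the amplified input (27.5% of 3464484 nuclear tags) were collapsed. Tags were shifted by 75 bp along their sign and counted with Python 3.11.15, numpy 2.4.6, scipy 1.17.1 and pandas 2.3.3. Inputs were scaled by nuclear library totals (factors 3.03 for the amplified and 0.453 for the unamplified input). H3K4me3 bins were merged over gaps of at most 1 bin. Covered Mb count 10 kb bins with an unamplified input tag, 2368 Mb on chromosomes 1 to 19. Stretches were extended in 5 kb windows with 1 lower window allowed, up to 200 kb a side. Ratios and shares have Clopper-Pearson intervals and levels Poisson intervals; intervals of ratios leave out the added tag. The functions were tested on simulated tags.

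Regions named, outside chromosome 18, were those leading in the lower flank, in H3K4me3 tags, in high or low H3K36me3 inside (at least 20 tags there), in stretch length and in even or uneven flanks, and those nearest the flank minimum. The members and lists were chosen with earlier results of these data known. The results were recomputed under 12 other settings, and under 2 more chosen after seeing the data. Per-sample groups hold 1 library each, so no test, pairing or left-out replicate was possible.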

Additional observations from a re-analysis of the deposited data

How the results depend on the processing

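The number of members stayed within 1.5 times of 1170 under 12 of 14 alternatives. It was 2724 with the H3K36me3 input scaled on background bins, a set that held all 1170, and 704 with a flank minimum of 3. As a share of narrow regions, members made up 35.3% with background scaling, 16.6% against the amplified input, 18.8% and 9.12% with flank minima of 1.5 and 3, 11.5% with flanks of 1 to 6 kb, 16.3% with at least 30 H3K4me3 tags per bin and 13.3% among regions with no other H3K4me3 region in a flank. The pooled H3K36me3 ratio inside turned from below to above 1 with background scaling (1.604) and against the amplified input (1.65), which itself took part in choosing the regions. It was 0.454 with a flank minimum of 3, 0.469 with flanks of 1 to 6 kb, 0.437 with 30 tags per bin, 0.4496 with an H3K4me3 ratio of at least 8, 0.401 with 5 tags added, 0.441 with no gaps merged and 0.348 without neighbours in a flank. The median stretch was 110 kb with background scaling and 59 kb with flanks of 1 to 6 kb. Fewer or more regions enter under a changed minimum by construction; otherwise the cause was not tested. Without the tag shift, with bins moved by 500 bp, with the repeats of the amplified input kept and with at least 20 input tags in each flank, all 4 values stayed within their counting error or 1.5 times. Of the 1170 members, 86.1% were also found against the amplified input and 64.8% with flanks of 1 to 6 kb. Depth limits single members most in the amplified input, with a median of 1 tag per region. No paired analysis was possible because each group holds 1 library.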

Other observations

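H3K4me3 regions wider than 3 kb, which the rule left out, had both flanks at the minimum in 54 of 276 cases (19.6%, 15.1 to 24.7), a share between those of members' widths of 2 and 3 kb. Inside those 54 the pooled H3K36me3 ratio was 1.08 and the median 0.302, against 0.427 and 0.212 in members. Spearman correlations of H3K4me3 tags per kb over the 1170 members were 0.11 with the lower flank ratio, 0.19 with the higher, -0.01 with the H3K36me3 ratio inside and 0.01 with the length of the stretch. Over all 7716 narrow regions the same values were 0.08, 0.28, 0.06 and 0.20, and the members are a set that the rule limited in both flanks. H3K4me3 tags and unamplified input tags inside members rose together (0.51), and both grow with the width of a region. These are descriptions over regions that share libraries and depth.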
